A study of Homo sapiens with 3 samples.

Results

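The cells described here are mesenchymal cells of human blood vessel organoids in which at least 2 of the genes PTX3, FOXF2 and DKK2 were detected. They numbered 1003 of the 23805 cells within the cell limits, with 766 in uninduced organoids, 49 after 15 days of induction and 188 after 45 days. Members were chosen by measured counts in these same libraries. Barcodes entered with 1000 or more unique molecular identifiers (UMIs, counted transcript molecules), 500 or more genes detected and no more than 20% of UMIs from mitochondrial genes. A member then needed at least 1 UMI in 2 or more of PTX3, FOXF2 and DKK2, fewer than 2 UMIs of COL15A1, and a UMI in fewer than 3 of the cycling genes MKI67, TOP2A, CDK1, UBE2C, BIRC5 and CENPF. These 10 genes are therefore given as a description and enter no count of differing genes.

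Blood vessel organoids are self-organised tissues of endothelial cells, mural cells and mesenchyme grown from pluripotent stem cells. All 3 groups came from H1, a human embryonic stem cell line carrying a PiggyBac-integrated cassette from which doxycycline switches on NEUROD1, a neurogenic transcription factor, together with GFP. All organoids were taken on day 45, and BDNF and NT-3, both neurotrophins, were in the medium of every group from day 15. The groups had received no doxycycline, doxycycline at 1 µg/ml for 15 days, or the same dose for 45 days; when the 15 days began is not given in the sources used here. Each group is 1 library of 5 to 6 pooled organoids, so no difference between groups has a replicate check, and no test was possible. Every 95% interval covers counting error only.

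PTX3 encodes pentraxin 3, a secreted pattern-recognition protein that also organises hyaluronan matrix. FOXF2 is a forkhead transcription factor of mesenchyme and of brain pericytes, known to respond to hedgehog signals and to restrain WNT signalling in gut and palate mesenchyme of mice. DKK2 is a secreted modulator of the WNT co-receptors LRP5 and LRP6. OGN, osteoglycin, is a small leucine-rich proteoglycan of connective tissue. The genes lie on chromosome 3 (157436789 to 157443628, plus strand) for PTX3, chromosome 6 (1389576 to 1395603, plus strand) for FOXF2, chromosome 4 (106921802 to 107283806, minus strand) for DKK2 and chromosome 9 (92383967 to 92404696, minus strand) for OGN, in GRCh38 with GENCODE 29 gene bounds. All 4 are protein-coding.

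The libraries held 5962 to 10765 barcodes and 49488425 to 64171327 UMIs. Barcodes shared by 2 libraries numbered 13 to 33, and none of them was a member in both. Members had a median of 5198.5 UMIs without induction, 7399 after 15 days and 5653.5 after 45 days, against 4920.5, 7469.5 and 5813 in the other mesenchymal cells of the same libraries. Their median mitochondrial share was 4.35%, 3.77% and 2.09%. The 15-day members summed to only 377650 UMIs, so that 1 UMI there equals 2.65 CPM (a gene's UMIs scaled to a common library size), against 0.218 CPM without induction and 0.816 CPM after 45 days. NEUROD1 had no UMI in members of the uninduced and 15-day libraries and 16 UMIs after 45 days, of which 81.2% came from 1 cell. Whether transcripts of the induced cassette are counted as NEUROD1 is not given in the sources used here. These counts therefore do not show whether members expressed the cassette.

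Members made up 8.65% of uninduced cells (766 of 8858; Clopper-Pearson 95% interval 8.07% to 9.25%). They made up 0.924% of cells after 15 days (49 of 5303; 0.684% to 1.22%) and 1.95% after 45 days (188 of 9644; 1.68% to 2.25%). The share after 15 days was 0.107 times the uninduced share (0.0784 to 0.143), and that after 45 days was 0.225 times it (0.191 to 0.265). The 45-day share was 2.11 times the 15-day share (1.53 to 2.95). The intervals of the 3 libraries do not overlap. Because the rule reads 3 genes at low counts, fewer cells of this kind and less of these transcripts per cell cannot be told apart. Cells were also thinned to 2000 UMIs and the rule applied again, with 344, 284 and 504 shallower cells left out. It was then met by 3.29% of 8514 uninduced cells, 0.12% of 5019 15-day cells and 0.591% of 9140 45-day cells, in the same order. Of the cells that met it, 30, 0 and 3 were not members before thinning, since thinning also lowers the COL15A1 and cycling counts.

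**Figure D1:**
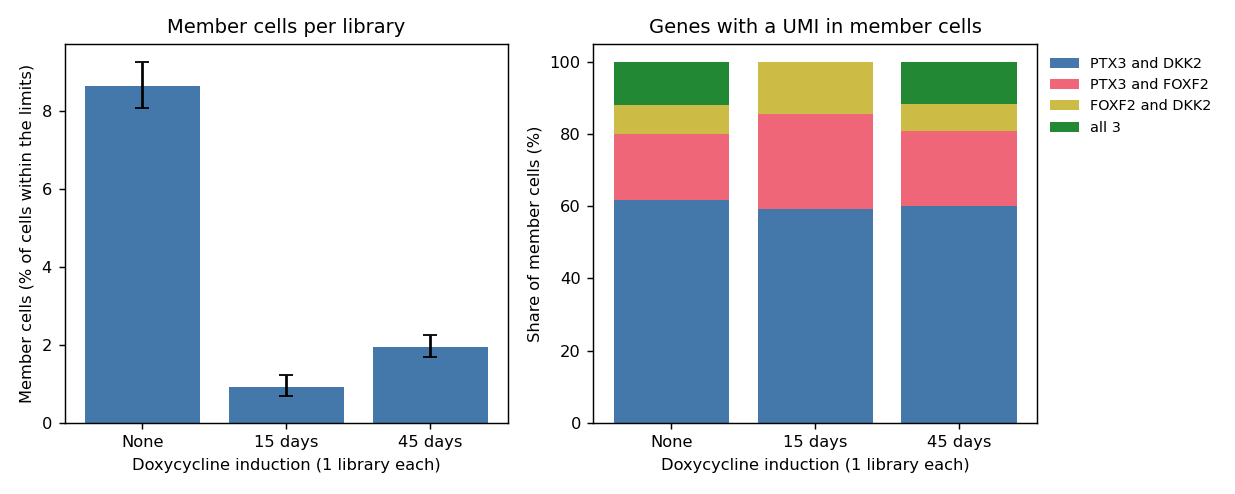
Left, share of cells within the limits (percent) that were members in each of the 3 libraries; bars are single libraries and error bars Clopper-Pearson 95% intervals. Right, share of members with a UMI in each combination of the 3 rule genes; PTX3 with DKK2 was the most frequent pair in all 3 libraries (61.8%, 59.2% and 60.1%).

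The pair PTX3 and DKK2 was detected in 473 of 766 uninduced members (61.8%), 29 of 49 members after 15 days (59.2%) and 113 of 188 after 45 days (60.1%). PTX3 with FOXF2 but no DKK2 UMI was found in 140, 13 and 39 members, and FOXF2 with DKK2 but no PTX3 UMI in 62, 7 and 14. All 3 genes were detected in 91 uninduced members (11.9%; 9.67% to 14.4%), in none of the 49 members after 15 days (an upper limit of 7.25%), and in 22 after 45 days (11.7%; 7.48% to 17.2%). The share with all 3 had overlapping intervals in the uninduced and 45-day libraries. Uninduced members held 36.5% of all PTX3 UMIs among the cells of that library, 39.0% of those of FOXF2 and 29.3% of those of DKK2. Most UMIs of each of the 3 genes therefore lay in cells outside the rule.

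Cells just outside and just inside the rule were counted. Outside it, 1737 uninduced, 424 15-day and 875 45-day cells had a UMI in exactly 1 of the 3 genes. Inside it, 213, 26 and 73 members had 1 UMI in each of only 2 genes. The uninduced cells with 1 gene had 47.9 CPM of OGN and 637 CPM of CXCL14, and the members with 1 UMI in each of 2 genes had 40.0 and 756 CPM. COL15A1 stood at 1 UMI in 46 uninduced members, while 12 cells with 2 UMIs met every other condition and were left out, as were 24 cells with 3 cycling genes. In all, 47 uninduced cells were left out for 2 or more COL15A1 UMIs alone and 180 for 3 or more cycling genes alone.

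The members expressed mesenchymal markers. Of members, 85.4% without induction, 85.7% after 15 days and 92.0% after 45 days had a UMI in at least 2 of PDGFRA, TWIST1 and PRRX1, a platelet-derived growth factor receptor and 2 mesenchymal transcription factors. The summed level of 12 mesenchymal markers was 10473, 8703.8 and 8151.1 CPM in members, with none of the 12 at 0, against 7747.6, 1089.7 and 1226.3 CPM in cells with 2 of the endothelial genes PECAM1, CDH5, KDR and TEK. The 10 endothelial markers summed to 296, 249 and 233 CPM in members and to 5482.8, 7044 and 7005.9 CPM in those endothelial-like cells. Mural markers (12 genes, among them RGS5, ACTA2 and KCNJ8) summed to 417, 151 and 175 CPM in members and to 574, 539 and 302 CPM in other mesenchymal cells. Epithelial markers summed to 431, 230 and 134 CPM, neuronal markers to 126, 236 and 183 CPM and haematopoietic markers to 114, 58.2 and 52.2 CPM in members. The corresponding sums in other mesenchymal cells, which had to lack EPCAM, KRT5, PTPRC and C1QA, were 352, 201 and 119 CPM, then 298, 1002.3 and 641.7 CPM, then 49.2, 35.4 and 35.9 CPM. At least 1 UMI of PECAM1, CDH5, EPCAM, KRT5, PTPRC or C1QA was present in 107, 8 and 17 members. The 3-gene rule was also met by cells carrying markers of other types. It was met by 15 of 646 uninduced cells with a UMI in at least 2 of EPCAM, KRT5, KRT19 and CDH1 (2.32%) and 4 of 92 with at least 2 of PTPRC, C1QA, TYROBP and CD68 (4.35%), by 0 of 533 and 0 of 124 after 15 days, and by 2 of 625 and 1 of 114 after 45 days. It was met by 10 of 601 uninduced cells with 2 of the endothelial genes, against 0 of 378 and 0 of 247 after 15 and 45 days, which allow shares of up to 0.794% and 1.21% by the limit of 3 cells that a count of 0 allows.

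Members were next set against the other mesenchymal cells of their own library, which were non-cycling cells with a UMI in at least 2 of PDGFRA, TWIST1 and PRRX1 and none in the 6 lineage genes above. UMIs were summed over cells and scaled to CPM. A gene counted as apart when it reached 50 CPM on either side and differed at least 2-fold with 5 CPM added to both sides. Without induction 8 of 2553 genes were higher in members (0.313%) and 17 were lower (0.666%). After 15 days 43 of 3087 genes were higher (1.39%) and 90 lower (2.92%), where only 49 cells stand behind the members' values. After 45 days 38 of 2867 were higher (1.33%) and 33 lower (1.15%). LTBP1 and GRIA2 were at least 2-fold higher in members of all 3 libraries, and C11orf96, DLK1, IGFBP7, MGP, MMP9, NDUFA4L2, RGS5 and STMN2 at least 2-fold lower.

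The uninduced comparison cells included COL15A1-rich cells, which the rule keeps out of the members. Against only those comparison cells with fewer than 2 COL15A1 UMIs, a setting chosen after seeing the data, 9 of 2542 genes were higher in members (0.354%) and 11 lower (0.433%). Of the 8 genes first counted as higher, 4 remained, and of the 17 lower, 8 remained. CXCL14, FBLN5, KCNMA1, KRT19 and S100A6 were added to the higher side, while GRIA2, TWIST2, C1QTNF7 and FABP7 no longer reached 2-fold. DLK1, IGFBP3, MGP, THY1, MMP9 and NDUFA4L2 were among the 9 genes lost from the lower side.

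Among secreted factors, CXCL14, a chemokine made by fibroblasts, was at least 2-fold higher in members after 15 and 45 days. Its level was 1016 CPM in members and 528 CPM in other mesenchymal cells without induction, 238 and 105 CPM after 15 days, and 1114.9 and 217 CPM after 45 days. The plain ratio of members to other mesenchymal cells was 1.92 (1.86 to 1.99), 2.27 (1.81 to 2.82) and 5.15 (4.85 to 5.46). The 45-day ratio thus lay above the intervals of both others. The members' own level after 45 days stood to that without induction in a ratio with an interval of 1.03 to 1.17, whereas other mesenchymal cells had 217 CPM after 45 days and 528 CPM without induction. After thinning to 2000 UMIs, a CXCL14 UMI was found in 62.0% of uninduced members, 40.2% of other mesenchymal cells and 11.6% of endothelial-like cells, and after 45 days in 60.9%, 21.1% and 4.46%.

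LTBP1 encodes a latent TGF-beta binding protein that holds the growth factor in matrix. Members had 216 CPM against 77.9 CPM in other mesenchymal cells without induction, 106 against 31.6 CPM after 15 days and 96.3 against 35.0 CPM after 45 days, ratios of 2.77 (2.55 to 3.01), 3.35 (2.35 to 4.65) and 2.75 (2.25 to 3.34). The intervals of the 3 ratios overlap, although the level itself was higher without induction. FBLN5, an elastic fibre protein, had 93.0 against 45.8 CPM, 29.1 against 22.5 CPM and 50.6 against 24.7 CPM. ENPP2, autotaxin, which makes lysophosphatidic acid, had 95.4 against 50.9 CPM, 127 against 66.3 CPM and 161 against 90.1 CPM. COL23A1, a transmembrane collagen, had 98.7 against 53.1 CPM, 34.4 against 18.7 CPM and 71.8 against 30.0 CPM.

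At the cell surface, SLITRK6, a leucine-rich transmembrane protein of inner ear and neural tissue, had 122 CPM in members and 51.0 CPM in other mesenchymal cells without induction. It had 26.5 and 22.6 CPM after 15 days and 136 and 23.8 CPM after 45 days, so the 15-day ratio of 1.17 (0.556 to 2.19) spans 1 while the 45-day ratio was 5.73 (4.79 to 6.82). GRIA2, a subunit of AMPA glutamate receptors, had 73.0 against 33.4 CPM, 84.7 against 18.4 CPM and 136 against 43.0 CPM. TENM3, a teneurin adhesion protein, had 90.8 against 45.7 CPM, 21.2 against 15.0 CPM and 44.1 against 24.6 CPM. TMEM132C, a membrane protein, had 63.0 against 33.4 CPM, 23.8 against 10.2 CPM and 67.7 against 19.3 CPM.

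Inside the cell, MAB21L1, a gene of eye and craniofacial development, had 162 against 81.0 CPM without induction, 132 against 34.7 CPM after 15 days and 179 against 66.3 CPM after 45 days. The interval of its ratio was 1.83 to 2.19 without induction, 2.78 to 5.13 after 15 days and 2.33 to 3.11 after 45 days, above 1 in every library. GFOD1 had 69.9 against 23.5 CPM, 21.2 against 9.34 CPM and 61.2 against 13.1 CPM. GAS2, a cytoskeletal protein, had 121 against 64.8 CPM, 50.3 against 9.16 CPM and 49.8 against 19.9 CPM. ARHGAP28 had 145 against 78.0 CPM, 76.8 against 35.7 CPM and 97.9 against 56.5 CPM. SC5D, an enzyme of cholesterol synthesis, had 54.7 against 26.6 CPM, 42.4 against 25.9 CPM and 38.4 against 25.2 CPM. The long non-coding RNA MIR99AHG had 93.2 against 49.0 CPM, 18.5 against 16.7 CPM and 40.8 against 29.5 CPM, and its 15-day value rests on 7 UMIs.

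**Figure D2:**
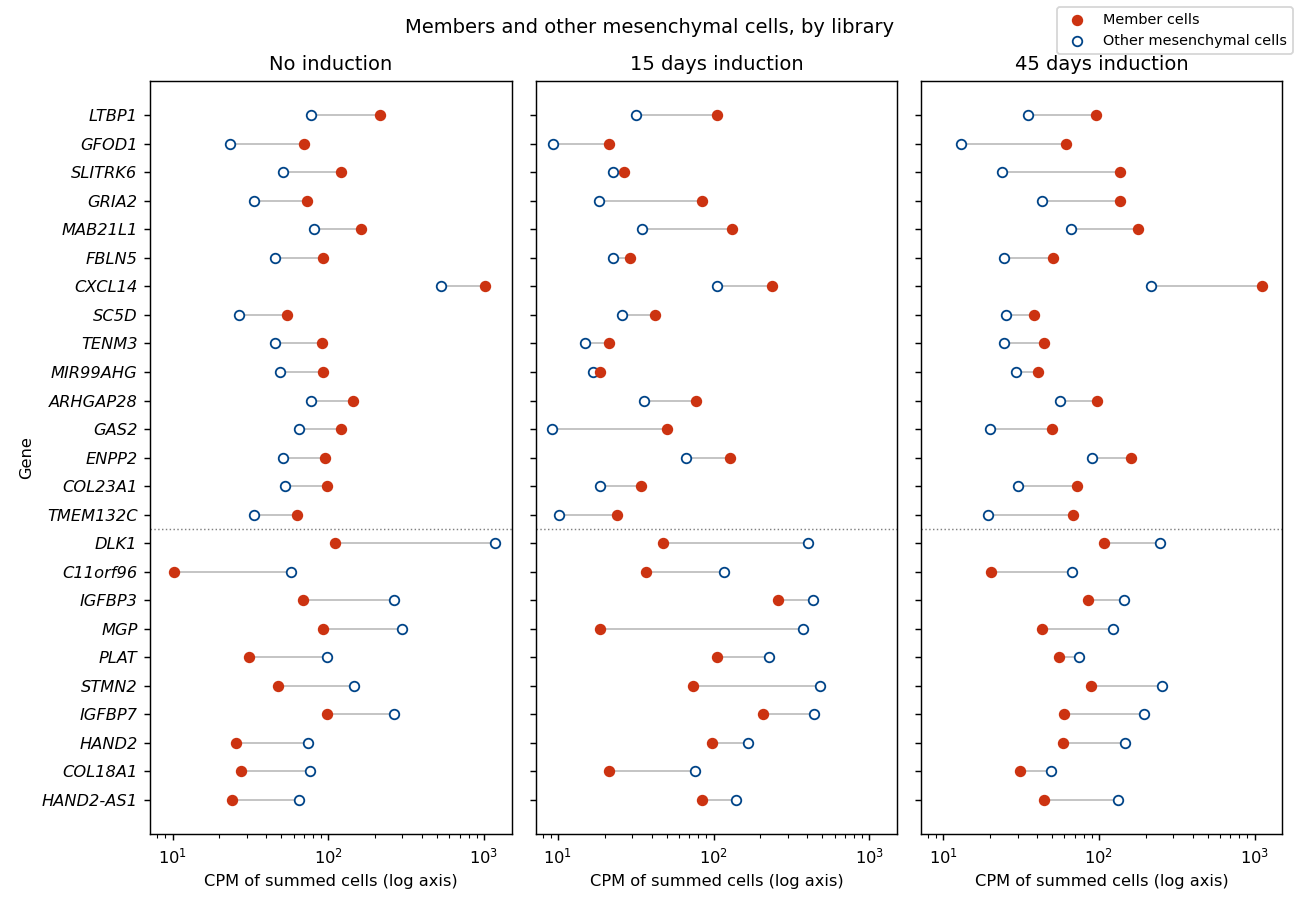
CPM of summed cells on a log axis in members (filled) and other mesenchymal cells (open) for the 15 genes highest and the 10 genes lowest in members relative to other mesenchymal cells without induction, in each library. Every gene keeps its side in all 3 panels, as the choice of genes required; the gap of CXCL14 is widest after 45 days (1114.9 against 217 CPM).

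On the lower side, HAND2, a transcription factor of limb, heart and sympathetic development, had 25.5 CPM in members and 73.7 CPM in other mesenchymal cells without induction, 98.0 and 168 CPM after 15 days, and 58.8 and 148 CPM after 45 days. The ratio was 0.346 (0.284 to 0.418), 0.585 (0.411 to 0.809) and 0.397 (0.31 to 0.502). IGFBP7, an insulin-like growth factor binding protein, had 98.9 against 265 CPM, 206 against 440.2 CPM and 59.6 against 195 CPM. STMN2, a microtubule regulator of neurons, had 47.7 against 146 CPM, 74.1 against 486 CPM and 89.0 against 254 CPM. The whole neuronal marker sum was lower in members too (126, 236 and 183 CPM, against 298, 1002.3 and 641.7 CPM), and its part in the STMN2 values was not tested. C11orf96 had 10.2 against 58.1 CPM, 37.1 against 117 CPM and 20.4 against 66.9 CPM. COL18A1, the collagen that yields endostatin, had 27.7 against 76.5 CPM, 21.2 against 76.1 CPM and 31.0 against 49.3 CPM. RGS5, a mural cell gene, had 20.0 against 78.1 CPM, 10.6 against 119 CPM and 10.6 against 41.2 CPM. After 15 days a single member gave 64.3% of the C11orf96 UMIs, 62.5% of those of COL18A1 and 41.0% of those of IGFBP7.

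DLK1, a secreted and membrane-bound relative of Notch ligands, had 111 CPM in members and 1185.8 CPM in other mesenchymal cells without induction, 47.7 and 407 CPM after 15 days and 109 and 248 CPM after 45 days. COL15A1-rich cells had 6605.6 CPM of DLK1, and against comparison cells with fewer than 2 COL15A1 UMIs its log2 fold was -0.98 in place of -3.36. The same setting gave -0.43 in place of -1.86 for IGFBP3 and -0.60 in place of -1.63 for MGP, a matrix calcification inhibitor of which a single member gave 49.6% of the uninduced UMIs. PLAT, tissue plasminogen activator, had 30.9 against 98.8 CPM, with 35.9% of the members' UMIs from 1 cell. HAND2-AS1, which lies beside HAND2 on the opposite strand, had 24.2 against 65.4 CPM.

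Of the limb mesenchyme factors (19 genes), 10 reached 50 CPM without induction. Of these, 0 were at least 2-fold higher and 1, HAND2, lower, beside 0.313% and 0.666% of all genes. Their median log2 fold was 0.29, beside 0.0049 over all genes tested. After 15 days PITX1, TBX3 and PRRX2 were higher among 12, beside 1.39% of all genes, with a median of 0.39 beside -0.04. After 45 days TBX3 was higher and LHX9 and HAND2 lower among 13, beside 1.33% and 1.15% of all genes, with a median of 0.44 beside -0.02. TBX3, a T-box factor of limb margins, had 244 against 191 CPM, 376 against 184 CPM and 324 against 151 CPM. PITX1, a hindlimb factor, had 458 against 283 CPM, 193 against 75.6 CPM and 330.5 against 196 CPM. LHX9, a factor of distal limb mesenchyme, had 4.14 against 17.2 CPM, 42.4 against 30.7 CPM and 45.7 against 148 CPM, and 68.8% of the members' 15-day UMIs came from 1 cell. Among other forkhead factors (12 genes) 0 of 2 above the floor were 2-fold apart in each library, and among hyaluronan matrix genes (13 genes) 0 of 3, 0 of 2 and 0 of 2 were.

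In the hedgehog list (10 genes) 1 to 3 genes reached the floor. PTCH1, receptor and target of hedgehog, had 40.7 against 25.7 CPM without induction, 127 against 57.3 CPM after 15 days and 63.7 against 32.4 CPM after 45 days. GAS1, a hedgehog co-receptor, had 203 against 121 CPM, 58.2 against 31.3 CPM and 122 against 49.2 CPM. Both were above their neighbours in each library, by at least 2-fold for PTCH1 after 15 days and for GAS1 after 45 days.

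Among the secreted WNT antagonists and R-spondins (15 genes), none of 6 was 2-fold apart without induction. SFRP2, a secreted Frizzled-related protein, had 182 against 148 CPM, 167 against 33.3 CPM and 137 against 69.1 CPM, and was counted as higher after 15 days. RSPO3, an R-spondin that strengthens WNT signals, had 28.3 against 32.6 CPM, 13.2 against 91.8 CPM and 23.7 against 57.4 CPM, and was counted as lower after 15 and 45 days. In the list of WNT ligands, receptors and targets (21 genes) all 5 genes that reached the floor without induction were above 0 on the log2 scale. None was 2-fold apart, and their median was 0.41, beside 0.0049 over all genes tested.

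Of 14 fibrillar collagen and matrix genes none was 2-fold apart without induction. Their median log2 was -0.07, with 6 above 0, beside 0.0049 over all genes tested. With the COL15A1-limited comparison cells 13 of 14 lay above 0 with a median of 0.32. LUM and DCN, both small leucine-rich proteoglycans, were higher in members after 45 days, LUM at 854.5 against 320 CPM and DCN at 282 against 133 CPM. Without induction LUM stood at 1264.1 against 1276.4 CPM and DCN at 421 against 620.0 CPM, but against comparison cells with fewer than 2 COL15A1 UMIs, which had 929 CPM of LUM and 320 CPM of DCN, both were above 0 on the log2 scale (0.44 and 0.39), and so was COL1A1 (0.56 in place of -0.49). After 15 days LUM stood at 477 against 296 CPM and DCN at 222 against 112 CPM, neither 2-fold apart. THY1, a fibroblast surface protein, was lower in members without induction (83.7 against 202 CPM) and after 15 days (98.0 against 208 CPM), and had 85.7 against 160.0 CPM after 45 days.

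OGN, listed with the marker genes but not used by the rule, had 78.4 CPM in members and 43.1 CPM in other mesenchymal cells without induction, a ratio of 1.82 (1.60 to 2.06). It had 2.65 CPM, a single UMI, in members and 2.73 CPM in other mesenchymal cells after 15 days, and 12.2 and 9.49 CPM after 45 days, where the ratio of 1.29 (0.71 to 2.17) spans 1. After thinning to 2000 UMIs, 11.1% of uninduced members, 7.12% of other mesenchymal cells and 1.58% of endothelial-like cells had an OGN UMI. A difference of OGN between members and other mesenchymal cells was not detectable at this depth in either induced library.

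Levels by the number of rule genes detected are a description, since CXCL14, LTBP1, SLITRK6 and HAND2 were named for differing between cells chosen by those same genes. Among uninduced mesenchymal cells with 0, 1, 2 and 3 of the genes and fewer than 2 COL15A1 UMIs, CXCL14 stood at 362, 671, 933 and 1533.5 CPM. LTBP1 stood at 52.0, 133, 206 and 277 CPM and SLITRK6 at 40.2, 81.3, 120 and 130 CPM. HAND2 ran the other way, at 80.6, 41.6, 27.5 and 12.7 CPM. After 45 days CXCL14 stood at 164, 482, 1073.1 and 1375.2 CPM and SLITRK6 at 17.6, 53.0, 123 and 218 CPM. Not every named gene was ordered in this way. Without induction ENPP2 stood at 46.0, 72.1, 99.3 and 71.1 CPM, TENM3 at 31.3, 64.0, 91.7 and 85.4 CPM, ARHGAP28 at 65.9, 112, 146 and 139 CPM and MGP at 114, 189, 99.3 and 50.6 CPM. After 15 days SLITRK6 stood at 20.2, 34.8 and 26.5 CPM with 0, 1 and 2 genes. The top step holds 91 uninduced and 22 45-day cells, with median UMIs of 5905 and 6498.5, somewhat above those of the cells with none (4834 and 5816), so depth moves with the number of genes and its part was not tested.

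**Figure D3:**
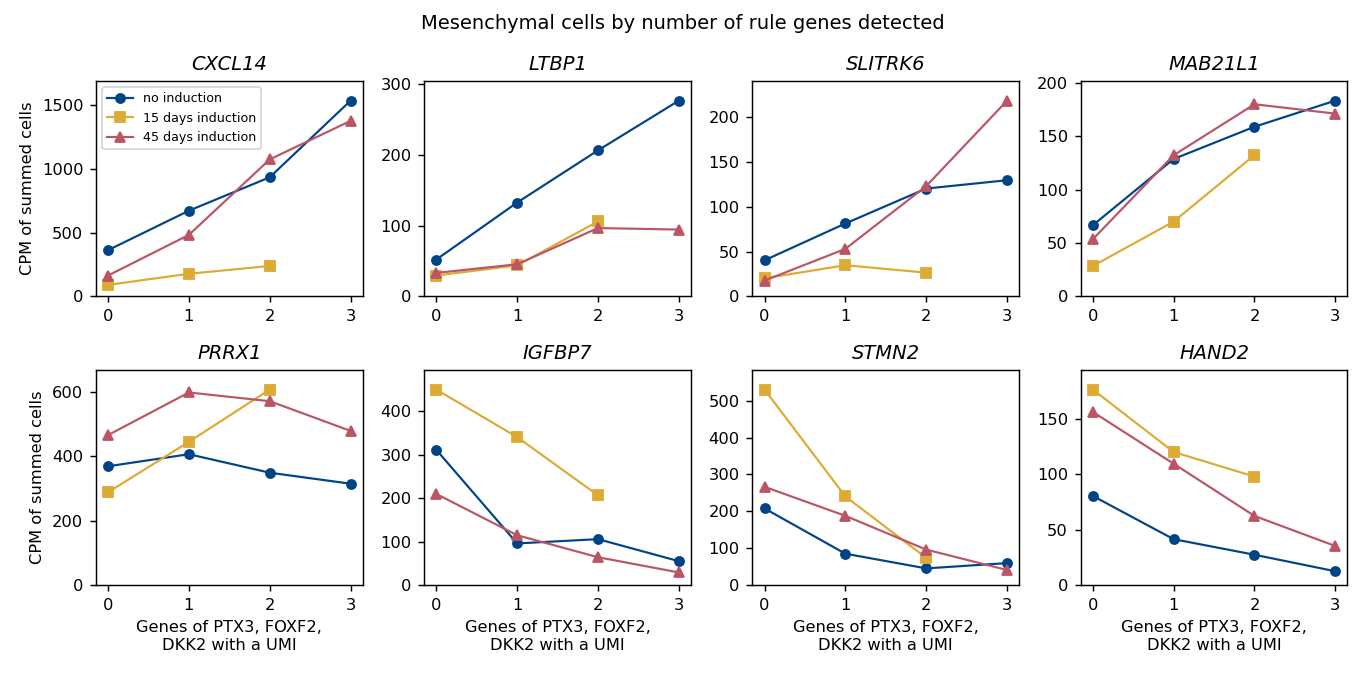
CPM of summed mesenchymal cells with fewer than 2 COL15A1 UMIs against the number of the genes PTX3, FOXF2 and DKK2 with a UMI, for 8 genes and 3 libraries (lines); no 15-day cell had all 3. Without induction CXCL14 goes through 362, 671, 933 and 1533.5 CPM while HAND2 goes through 80.6, 41.6, 27.5 and 12.7 CPM.

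Members differed among themselves by pair. Uninduced members with PTX3 and FOXF2 but no DKK2 had 685 CPM of LUM, 156 CPM of DCN and 833 CPM of COL1A1. Those with PTX3 and DKK2 but no FOXF2 had 1508.1, 527 and 1607.7 CPM of the same genes. After 45 days the same pairs had 645 and 993 CPM of LUM and 226 and 345 CPM of DCN, in the same order, while COL1A1 stood at 818 CPM (710 to 939) and 709 CPM (649 to 774), with overlapping intervals. MAB21L1 ran against LUM, at 220 CPM with PTX3 and FOXF2 and 146 CPM with PTX3 and DKK2 without induction, and at 202 CPM (150 to 266) and 175 CPM (145 to 208) after 45 days, where the intervals overlap. The pairs were formed by the rule genes, so these levels are a description.

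Genes were also ranked by how well their detection went with membership among uninduced cells thinned to 2000 UMIs, using the phi coefficient over 764 members and 7750 other cells. The 10 highest were TWIST1, ZFHX4, PITX1, LTBP1, CXCL14, MAB21L1, COL1A2, LSAMP, SLITRK6 and ID2, with phi from 0.208 for TWIST1 to 0.134 for ID2. TWIST1 had a UMI in 79.7% of members and 43.5% of other cells, and SLITRK6 in 22.1% and 8.05%. Those other cells were non-members of every type, so genes of mesenchyme in general can also rank high. Among other mesenchymal cells thinned alike, which were chosen partly by TWIST1, the shares were 67.4% for TWIST1 and 10.6% for SLITRK6. In a neighbour graph built without the rule genes, members formed 30.1% of the 15 nearest neighbours of an uninduced member, against 12.7% of those of other mesenchymal cells and 8.65% of all cells. After 15 days the shares were 10.2%, 2.59% and 0.924%, and after 45 days 21.0%, 3.31% and 1.95%. Most neighbours were other mesenchymal cells or members (79.2%, 77.8% and 84.2%). Among members, 60 of 766, 15 of 49 and 43 of 188 had no member among their neighbours.

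Set against cells chosen by other genes, uninduced members had 1085.5 CPM of TWIST1, against 144 CPM in COL15A1-rich cells, 710 CPM in cells with both LHX9 and HOXD13 and 187 CPM in cells with both MEOX2 and CLDN11. COL15A1-rich cells were non-cycling cells outside the members with at least 2 COL15A1 UMIs, and no class had to carry mesenchymal markers. The classes held 492, 34 and 97 uninduced cells in that order, so low values in the smaller ones rest on few UMIs. MAB21L1 stood at 162 CPM in members, against 9.45, 23.2 and 51.4 CPM in those classes, and CXCL14 at 1016 CPM, against 549, 60.3 and 278 CPM. COL1A1 ran the other way relative to the COL15A1-rich cells, at 1421 CPM in members and 7515.1 CPM in those cells. HAND2 was 25.5 CPM in members, against 125, 74.3 and 176 CPM. After 45 days CXCL14 stood at 1114.9 CPM in members, against 143, 85.0 and 52.4 CPM, and SLITRK6 at 136 CPM, against 20.1, 10.4 and 4.92 CPM. In that library the classes held 57, 491 and 1128 cells. Its 57 COL15A1-rich cells were mixed in markers. They summed to 1656.3 CPM of endothelial and 1064.1 CPM of epithelial markers, against 245 and 119 CPM in other mesenchymal cells. Their mesenchymal markers summed to 11398.5 CPM, against 5428 CPM.

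**Figure D4:**
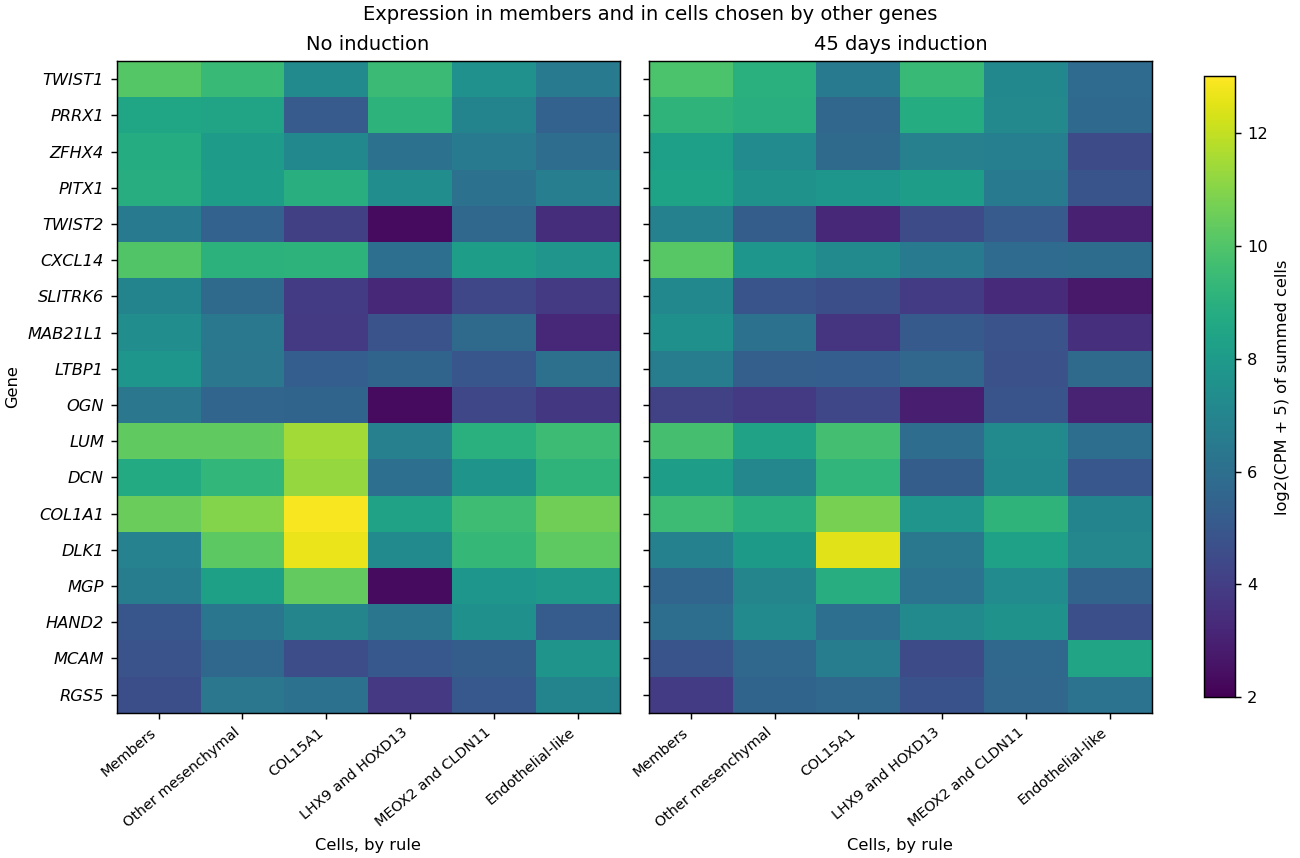
Expression as log2(CPM + 5) of summed cells for 18 genes in members and in cells chosen by other genes, without induction (left) and after 45 days (right). Among these classes CXCL14, SLITRK6 and MAB21L1 are brightest in members, and DLK1 and COL1A1 in COL15A1-rich cells (6605.6 and 7515.1 CPM without induction). CXCL14, SLITRK6 and MAB21L1 were named for being higher in members than in other mesenchymal cells. COL15A1-rich cells did not have to carry mesenchymal markers.

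Members of the induced libraries were then compared with uninduced members, leaving out the 10 rule genes. After 15 days 87 of 2921 genes were at least 2-fold higher than in uninduced members (2.98%) and 73 lower (2.5%). After 45 days 21 of 2785 were higher (0.754%) and 48 lower (1.72%). With scaling by the median of ratios these became 70 higher and 93 lower after 15 days, and 13 higher and 56 lower after 45 days. Other mesenchymal cells had 68 higher and 39 lower genes of 2856 after 15 days, and 29 higher and 52 lower of 2772 after 45 days. At 15 days 13 of the 87 higher genes drew at least 25% of their UMIs from 1 cell. Both comparisons share the uninduced members, and 15-day values of the genes below rest on 49 cells.

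Of the marker genes, OGN was lower in induced members, at 78.4 CPM without induction, 2.65 CPM after 15 days and 12.2 CPM after 45 days, and in other mesenchymal cells it stood at 43.1, 2.73 and 9.49 CPM. FABP7, a fatty acid binding protein, had 102 CPM without induction, no UMI after 15 days (at least 12.8-fold lower, from a floor of 3 counts over the group) and 20.4 CPM after 45 days, where 56% of UMIs came from 1 cell. KCNMA1, a potassium channel, had 71.2 CPM, no UMI (at least 8.97-fold lower) and 7.35 CPM.

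Of the mural markers, ACTA2 and TAGLN were the 2 that reached the floor between members, and both were counted as lower at each time. The share of all genes tested that were lower was 2.5% after 15 days and 1.72% after 45 days. TAGLN, transgelin, had 220 CPM in members without induction, 26.5 CPM after 15 days and 40.0 CPM after 45 days, and 172, 41.7 and 30.3 CPM in other mesenchymal cells. ACTA2, smooth muscle actin, had 78.4, 29.1 and 12.2 CPM, but 70.8% of its uninduced UMIs came from 1 cell. FN1, fibronectin, had 515, 260 and 140 CPM, which makes the 45-day level 0.272 times the uninduced one (0.232 to 0.318). Other mesenchymal cells had 564, 346 and 195 CPM of FN1, so its fall was not particular to members. MMP11, a metalloproteinase of stroma, had 49.0 CPM after 45 days (4.08-fold lower than without induction) and 60.9 CPM after 15 days, and TES, a focal adhesion protein, had 73.2, 21.2 and 15.5 CPM in the 3 libraries. Of 14 fibrillar collagen and matrix genes 0 were higher and 3 lower at each time, beside the same 2.5% and 1.72% of all genes lower. The lower genes were COL1A1, COL5A1 and COL14A1 after 15 days and COL5A1, COL14A1 and FN1 after 45 days. The list's median log2 folds were -0.24 and -0.33, beside 0.09 and 0.06 over all genes tested. COL1A1 had 1421, 546 and 734 CPM in members and 2002.4, 452 and 470 CPM in other mesenchymal cells.

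CTGF (CCN2), a matricellular target of TGF-beta and YAP, had 144 CPM without induction, 18.5 CPM after 15 days and 54.7 CPM after 45 days. Other mesenchymal cells had 101.5, 57 and 28.8 CPM of CTGF. IGFBP5, another insulin-like growth factor binding protein, had 294, 47.7 and 136 CPM, and FOSL2, an AP-1 subunit, 50.8, 5.30 and 35.9 CPM. C1QTNF7 had 52.7, 2.65 and 18.8 CPM, and the antisense transcript ZFHX4-AS1 63.6, 7.94 and 32.6 CPM.

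The keratins KRT8, KRT18 and KRT19 were the 3 epithelial-list genes that reached the floor. All 3 were lower after 45 days, beside 1.72% of all genes tested. KRT18 had 162 CPM without induction, 79.4 CPM after 15 days and 32.6 CPM after 45 days in members, and 164, 112 and 53.4 CPM in other mesenchymal cells. A single member gave 42.6% of the uninduced KRT18 UMIs. PGM5-AS1, an antisense transcript, had 62.1, 68.8 and 3.27 CPM, with 57.7% of its 15-day UMIs from 1 cell.

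DKK1, a secreted WNT antagonist of the same family as DKK2, was higher in induced members, at 52.1 CPM without induction, 577 CPM after 15 days and 157 CPM after 45 days. The 15-day level was 11.1 times the uninduced one (9.19 to 13.4) and the 45-day level 3.01 times (2.48 to 3.65). A single cell gave 27.98% of the 15-day UMIs. Other mesenchymal cells had 102, 516 and 156 CPM. DKK1 was the 1 gene of 6 WNT antagonists counted as higher at each time. Of all genes tested, 2.98% were higher after 15 days, and 0.754% were higher and 1.72% lower after 45 days. SFRP1 and FRZB, both Frizzled-related proteins, were lower after 45 days, SFRP1 at 478, 241 and 139 CPM and FRZB at 74.5, 60.9 and 31.8 CPM in the uninduced, 15-day and 45-day members.

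Of 9 FGF and IGF genes above the floor, 5 were higher after 15 days (SPRY1, SPRY2, DUSP6, IGF1 and IGFBP3) and 1, IGFBP5, lower, beside 2.98% higher and 2.5% lower of all genes tested; the median log2 was 1.38, beside 0.09. After 45 days 0 of 8 were higher and IGFBP5 was lower, beside 0.754% and 1.72% of all genes. The median was 0.44, beside 0.06. SPRY2, a feedback inhibitor of FGF signalling, had 33.5, 143 and 58.0 CPM in members and 55.7, 220 and 141 CPM in other mesenchymal cells. IGF1, insulin-like growth factor 1, had 169, 630.2 and 237 CPM in members and 193, 257 and 178 CPM in other mesenchymal cells, so that its 15-day level was higher in members than in other mesenchymal cells (2-fold call, log2 1.28). PTCH1 was 3.12 times (2.22 to 4.30) its uninduced level after 15 days, and GAS1 was 0.287 times (0.179 to 0.438) its own. BMP4 and BMP7, bone morphogenetic proteins, were also higher after 15 days, at 164 against 54.7 CPM and 82.1 against 22.2 CPM.

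Of 12 limb factors, 4 were higher after 15 days (LHX2, MSX2, HAND2 and TBX2) and 2 lower (PITX1 and ZFHX4), beside 2.98% and 2.5% of all genes tested, with a median log2 of 0.38 beside 0.09. HAND2 was the 1 higher after 45 days, beside 0.754%, with a median of 0.46 beside 0.06. LHX2, a LIM homeobox factor, had 3.49 CPM without induction, 60.9 CPM after 15 days and 18.0 CPM after 45 days. MSX2, a BMP-responsive homeobox gene, had 30.7, 140 and 58.0 CPM, and HAND2 25.5, 98.0 and 58.8 CPM. These genes were higher in induced other mesenchymal cells too. There LHX2 stood at 11.1, 57.2 and 45.6 CPM, MSX2 at 37.3, 80.4 and 65.9 CPM and HAND2 at 73.7, 168 and 148 CPM. MEOX2, a homeobox factor of paraxial and limb muscle patterning, had 13.1, 31.8 and 58.8 CPM in members and 31.5, 143 and 145 CPM in other mesenchymal cells. ZIC2, a zinc finger factor, had 21.1, 122 and 58.0 CPM, and MAB21L2, a relative of MAB21L1, 46.8, 122 and 122 CPM. The posterior gene HOXA10 had 150, 244 and 313 CPM and was counted as higher after 45 days, while PRAC1, which lies beside the HOXB cluster, had 25.5, 74.1 and 73.5 CPM. TFAP2A, a neural crest and ectoderm factor, had 11.8, 50.3 and 26.1 CPM.

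Of the hypoxia and glycolysis list 3 of 9 genes were counted as higher in 45-day members, beside 0.754% of all genes tested. All 9 of the 16 listed genes that reached the floor were above 0 on the log2 scale after 45 days, with a median of 0.76 beside 0.06 over all genes, and VEGFA, PDK1 and ANKRD37 were at least 2-fold higher. VEGFA, the endothelial growth factor, had 55.5 CPM without induction, 53.0 CPM after 15 days and 126 CPM after 45 days. Other mesenchymal cells had 59.0, 84.9 and 97.8 CPM. GPI, a glycolytic isomerase, had 79.3, 124 and 207 CPM, ENO2, an enolase, 12.6, 47.7 and 50.6 CPM, and KDM3A, a hypoxia-induced histone demethylase, 22.0, 29.1 and 55.5 CPM. TNIP1, an NF-kappa-B regulator, had 40.1, 95.3 and 100.4 CPM. The members' median mitochondrial share was lowest in the same library, at 2.09% after 45 days against 4.35% without induction, and its part in these values was not tested.

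KRT17, a keratin, had 8.06 CPM without induction, 291 CPM after 15 days and 34.3 CPM after 45 days, with 95.5% of the 15-day UMIs from 1 cell. NTM, a neuronal adhesion protein, had 24.4, 191 and 45.7 CPM in that order of libraries. COL13A1, a transmembrane collagen, had 17.2, 84.7 and 33.5 CPM, and TNNI1, a troponin, 13.9, 71.5 and 17.1 CPM. In other mesenchymal cells NTM stood at 44.0, 140 and 71.4 CPM.

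**Figure D5:**
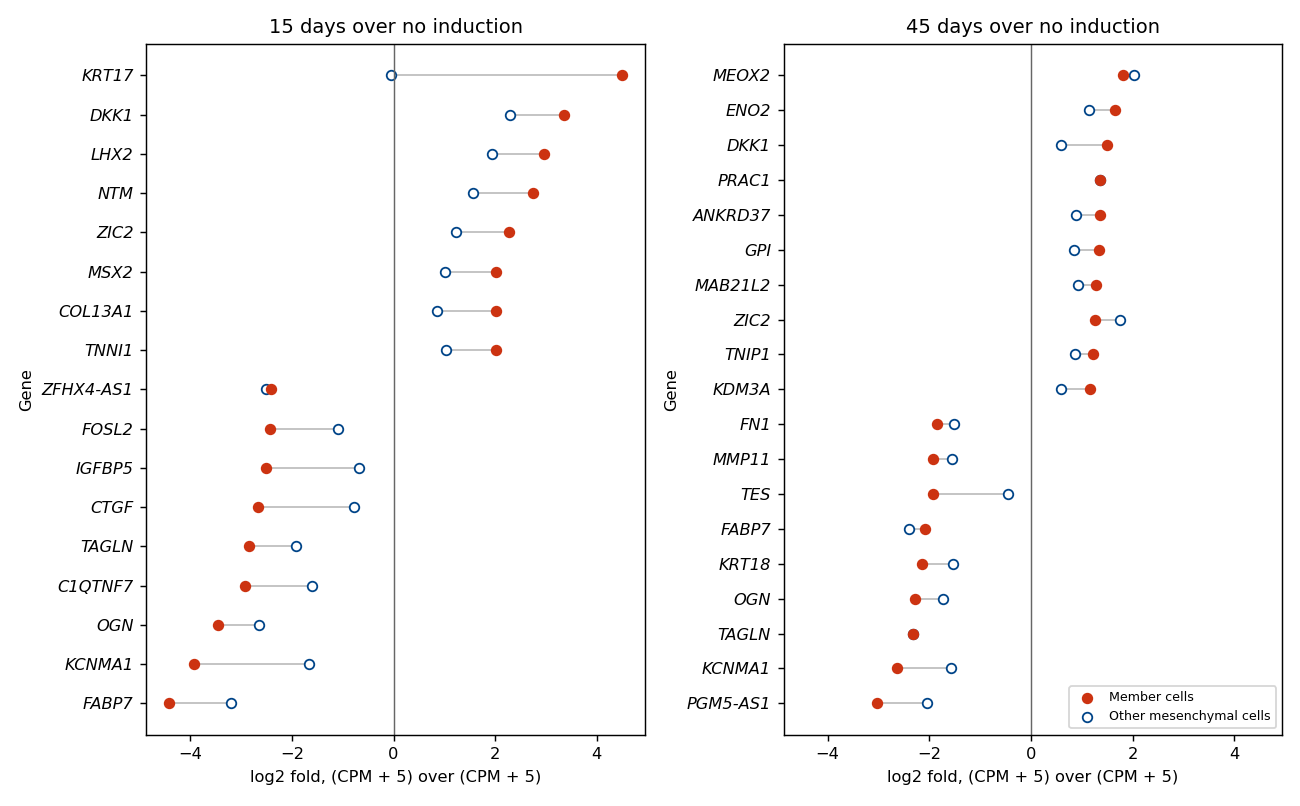
Log2 fold of CPM (5 added to each side) of 15-day (left) and 45-day (right) over uninduced cells, in members (filled) and other mesenchymal cells (open), for genes among the 10 highest and 10 lowest in members. TAGLN lies at a like place in both kinds of cell after 45 days (-2.32 in members and -2.33 in others), whereas KRT17 after 15 days does not (4.50 and -0.06). Most of the 15-day KRT17 UMIs in members came from a single cell.

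Directly between the induced libraries, 45 of 3003 genes were at least 2-fold higher in 45-day than in 15-day members (1.5%) and 62 lower (2.06%). Other mesenchymal cells had 11 higher and 20 lower of 2892. The 15-day library held 49 members and 1382 other mesenchymal cells, so the 2 sets of counts differ in counting error. Of the 62 lower genes, 11 drew at least 25% of their 15-day UMIs from 1 cell. CXCL14 was 4.68 times higher in 45-day members (3.78 to 5.86), SLITRK6 5.15 times (2.73 to 10.9) and TWIST2, a relative of TWIST1, 5.90 times (2.79 to 15.0). TWIST2 had 109 CPM after 45 days and 18.5 CPM after 15 days, with 86.0 CPM in uninduced members, and its 15-day level rests on 7 UMIs. TMEM158 had 70.2 CPM after 45 days and 5.30 CPM after 15 days, and SMC4, a condensin subunit, 50.6 and 10.6 CPM. On the lower side, DUSP6, an ERK phosphatase, had 13.9 CPM after 45 days and 68.8 CPM after 15 days. TFPI2, a protease inhibitor, had 10.6 and 66.2 CPM, a log2 fold of -2.19, which was -0.51 once members with a UMI of another lineage were left out.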

How the data were processed

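Single-cell RNA-seq of 3 libraries was analysed. The deposited matrices hold raw UMI counts per gene and barcode, made with Cell Ranger 3.0.0 on GRCh38 per the submitters' processing notes (3′ v3 chemistry, per the labels' protocols); the files list 33538 gene identifiers. Depth per library and per member is given above. Doublets were not removed in the main values; an alternative drops simulated-neighbour calls, which took 12.4%, 2.04% and 14.9% of members and 8.19%, 4.77% and 8.62% of all cells (no induction, 15 and 45 days).

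Counts were summed over cells and scaled to CPM; genes below 50 CPM on both sides were not compared, and 5 CPM were added for log2 folds. Poisson, conditional binomial and Clopper-Pearson 95% intervals were used. With 1 library per group no test was made. The scripts (Python 3.11.15, numpy 2.4.6, scipy 1.17.1, scikit-learn 1.9.0) were tested on simulated data.

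Members and the 28 lists were chosen with earlier results of these data known. Genes named were the 15 highest and 10 lowest against other mesenchymal cells with the same sign in every library and a UMI in 10% of cells, the 10 highest and 10 lowest per induction (5 for 45 against 15 days), up to 4 per list and the 10 highest by phi; ACTA2 and the shared-call genes were added after their values were seen. Some genes that the rule picks are not reported here. CCN2 is listed as CTGF and was matched by identifier.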

Additional observations from a re-analysis of the deposited data

Results flagged for a closer look

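Barcodes outside the cell limits were not used in any comparison, yet 13 of the 1374 such barcodes of the uninduced library met the gene part of the rule, 0.946% (Clopper-Pearson 95% interval 0.505% to 1.61%). In the 15-day library 0 of 659 did, and in the 45-day library 2 of 1121 did (0.178%).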

How the results depend on the processing

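No paired analysis was possible because each group is 1 library, and for the same reason no replicate could be left out. Thinning cells to 2000 UMIs, with shallower cells left out, gave member shares of 3.29%, 0.12% and 0.591% (no induction, 15 and 45 days). Asking for all 3 genes gave 1.03%, 0% and 0.228%, and leaving out cells with a UMI of another lineage gave 9.72% for uninduced cells. Counts of genes 2-fold apart from other mesenchymal cells were 25, 133 and 71 and became 128, 378 and 155 against all other cells, 58, 394 and 141 with a floor of 20 CPM, and 91, 933 and 237 with none. With all 3 genes asked for they were 85 without induction and 234 after 45 days (no 15-day cell had all 3). Without called doublets the uninduced count was 39, and against other mesenchymal cells with no UMI of the 3 genes, a setting added after seeing the data, it was 76. With the mesenchymal and lineage conditions of the comparison cells asked of members too, the counts were 35, 163 and 73. The uninduced 35 were 7 higher and 28 lower, where the main setting had 8 and 17. Counts between members of 2 libraries (15 days over none, 45 days over none, 45 over 15 days) were 160, 69 and 107 and became 445, 133 and 392 with the floor of 20 CPM and 982, 265 and 1059 with none. For the genes ranked within the comparisons, 75 gene and comparison pairs, 625 values were recomputed: 586 stayed on the same side of 2-fold or within counting error, 39 moved and 0 changed sign. Genes named from lists are not among them. A separate sign check used comparison cells limited to fewer than 2 COL15A1 UMIs. It covered the genes highest and lowest in members, OGN, and the mesenchymal, mural, proteoglycan, fibrillar matrix, limb, and BMP and TGF-beta lists. Of its 73 genes above the floor without induction 13 changed sign, and 0 did in the induced libraries. Among the 13 were COL1A1 (0.56 in place of -0.49), DCN (0.39 in place of -0.55) and LUM (0.44 in place of -0.01). Single genes of the other lists were not checked for sign.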

Other observations

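The hepatocyte-like marker list (10 genes) summed to 101 CPM in uninduced members, 188 CPM in 15-day members and 4.90 CPM in 45-day members, and to 107, 179 and 5.36 CPM in other mesenchymal cells. In the endothelial-like cells of the 15-day library it summed to 1219.8 CPM.

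CRABP1, a retinoic acid binding protein, had 314 CPM in uninduced members, 143 CPM after 15 days and 265 CPM after 45 days. The ephrin EFNB2 had 24.0, 103 and 41.6 CPM and GREM1, a BMP antagonist, 24.2, 39.7 and 54.7 CPM. In other mesenchymal cells GREM1 stood at 29.2, 11.1 and 24.5 CPM.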
